A study of Mus musculus with 24 samples.

Results

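In the newborn lens, 3477 of the 20053 peaks of H3K27ac (17.3%) lay away from H3K4me3 and had no acetylation or Polycomb mark listed at the same place in embryonic forebrain. They are called lens-only distal peaks here. A lens H3K27ac peak was a member if it shared not 1 base pair with an H3K4me3 peak of lens or forebrain, with a forebrain H3K27ac peak or with a forebrain H3K27me3 island. Removal of peaks with lens H3K4me3 left 7201, removal of those with forebrain H3K4me3 left 6971, removal of those with forebrain H3K27ac left 4428 and removal of those with forebrain H3K27me3 left the 3477. The members covered 1.61 Mb. "Distal" means only that no H3K4me3 peak was listed there, and "lens-only" that no forebrain peak was listed, not that the mark was absent from forebrain. Because the rule used these 5 lists, they are described and not tested. The marks compared below (H3K4me1 of both tissues, open chromatin of lens, Pax6 and RNA polymerase II of both tissues, and H3K27me3 of lens) came from other libraries.

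H3K27ac, an acetyl group on histone H3, is laid down by the coactivators p300 and CBP at enhancers and promoters in use. Promoters also carry H3K4me3, whereas enhancers carry H3K4me1, which can be present before an enhancer becomes active and can persist without acetylation. Transcription factors bind the nucleosome-poor stretch within an enhancer, which FAIRE recovers as open chromatin, while the acetylated histones sit in the nucleosomes beside it. Pax6, a factor with a paired domain and a homeodomain, is needed to form the lens and to pattern the forebrain.

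The lens samples came from newborn (P1) CD-1 mice and the forebrain samples from CD-1 embryos at E12.5, and the labels name no allele or agent for either. For each tissue there was 1 library and 1 list of peaks or islands per mark, except that forebrain Pax6 had 2 libraries behind 1 list. FAIRE was run in lens alone. How many animals were pooled is not given in the labels. With 1 list per group no difference was checked against replicates, the exact Clopper-Pearson 95% intervals printed with shares reflect the number of peaks and nothing else, and no p-value was computed. Tissue and age cannot be told apart, since all lens samples were P1 and all forebrain samples E12.5. In the separate RNA libraries the 6 lens markers examined summed to 12638 RPKM in lens epithelium, 270604 in lens fibers and 23.0 in forebrain, and the 6 forebrain markers to 9.06, 4.11 and 870.3. Epithelium also held the 3 pigment cell markers (Tyr, Dct, Pmel) at a summed 80.6 RPKM, and the 4 blood markers stood at 343.5 in epithelium and 1131 in forebrain. The 3 endothelial markers summed to 27.4 RPKM in epithelium, 0.561 in fibers and 14.4 in forebrain. The lens factor Foxe3 was listed at 0 in forebrain and the cortical factor Emx1 at 0 in fibers. The share of other cells in the chromatin samples was not tested, and in such bulk tissue fewer marked cells and less mark per cell cannot be told apart. No genes are named for the regions, because the lists are on the mouse build mm9 and no mm9 annotation was used here.

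The members were weak and narrow compared with all lens H3K27ac peaks. Their fold enrichment over control at the summit, as given in the authors' peak list, ran from 1.98 to 14.6 with a median of 4.67, against a median of 5.77 over all lens H3K27ac peaks and 6.59 over the 13082 peaks with H3K4me3. The median width was 363 bp, against 465 bp over all. Other distal lens peaks were also below the whole list. Those with forebrain H3K27ac and no forebrain H3K27me3 had medians of 5.22 and 428 bp. Those in forebrain H3K27me3 without forebrain H3K27ac had medians of 4.67 and 383 bp, close to the members. Only 20 members reached a fold enrichment of 10. The authors' values came in steps of 0.275, with 65.9% of the members within 0.01 of a whole number of steps, and the median member stood at 17 steps. Many members therefore shared a value and could not be ranked against each other. The largest q-value of a member was 0.00931, and 144 members had a -log10 q under 3.

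At the strongest end, a chromosome 10 peak (61679564 to 61681088; every position is on mm9) reached a fold enrichment of 14.6. It lay in a lens H3K4me1 island with 243 ChIP reads against 175 control reads (3.94 times the control after scaling by library size), overlapped FAIRE and a lens Pax6 peak, and overlapped no forebrain list. Another peak of chromosome 10, at 76262208 to 76266588, reached 12.9 and was the widest member (4381 bp). It too overlapped lens H3K4me1 (376 ChIP and 244 control reads), FAIRE and lens Pax6 and nothing from forebrain. The peak on chromosome 15 at 103163021 to 103164716 (12.3) and the one on chromosome 7 at 140924156 to 140925277 (11.5) overlapped lens H3K4me1, the second also FAIRE, and neither overlapped Pax6. On chromosome 2, the peak at 154403413 to 154404060 (11.3) lay in H3K4me1 islands of both tissues, with 42 ChIP reads in lens and 61 in forebrain. All 5 strongest members thus carried lens H3K4me1, and 1 of the 5 carried it in forebrain.

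H3K4me1, the mark of enhancers, was listed in lens at 2831 members, 81.4% (80.1% to 82.7%), against 39.6% of all lens H3K27ac peaks. That background includes the peaks with H3K4me3, of which 18.4% had lens H3K4me1. In forebrain, H3K4me1 was listed at 1665 members, 47.9% (46.2% to 49.6%), against 58.8% of all. Both tissues had an island at 1504 members (43.3%), lens alone at 1327 (38.2%), forebrain alone at 161 (4.63%) and neither at 485 (13.9%). Over all lens H3K27ac peaks these classes made up 29.5%, 10.1%, 29.3% and 31.1%. Of the 1488 members with H3K4me1 in 1 tissue alone, 89.2% (87.5% to 90.7%) had it in lens, against 25.6% over all lens H3K27ac peaks. That background again includes the peaks with H3K4me3, where it was 6.83%. The members had it mostly in lens although the forebrain list was the longer one, with 40774 islands over 145.6 Mb against 20811 over 74.1 Mb. Forebrain H3K4me1 was thus listed at 1665 places without listed forebrain acetylation and not listed at the other 1812.

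Distal peaks acetylated in both tissues provided the nearest comparison. These 2229 shared distal peaks passed every other part of the rule and overlapped a forebrain H3K27ac peak. Among them, 74.2% had H3K4me1 in both tissues, 1.30% in lens alone and 14.9% in forebrain alone. Their forebrain H3K4me1 share was 89.1%, a lens-only minus shared difference of -41.2 percentage points (Newcombe 95% interval -43.3 to -39.1). The members were chosen for missing forebrain acetylation, which lies largely in H3K4me1 islands, so this difference is a description and not independent of the rule. Lens H3K4me1 was 5.96 points higher at lens-only than at shared peaks (81.4% against 75.5%, interval 3.77 to 8.18). That direction turned with distance from H3K4me3: 24.0% of shared but 7.28% of lens-only peaks lay under 1 kb from an H3K4me3 peak of either tissue, where lens H3K4me1 was listed at 36.1% and 52.2%. At 1 kb or more the order turned, with 87.8% at shared and 83.7% at lens-only peaks. When gaps of up to 1 kb counted as overlap in the rule, the difference was -6.86 points (-8.81 to -4.87), and with only the H3K4me1 islands above the list's median ratio it was -3.72.

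**Figure D1:**
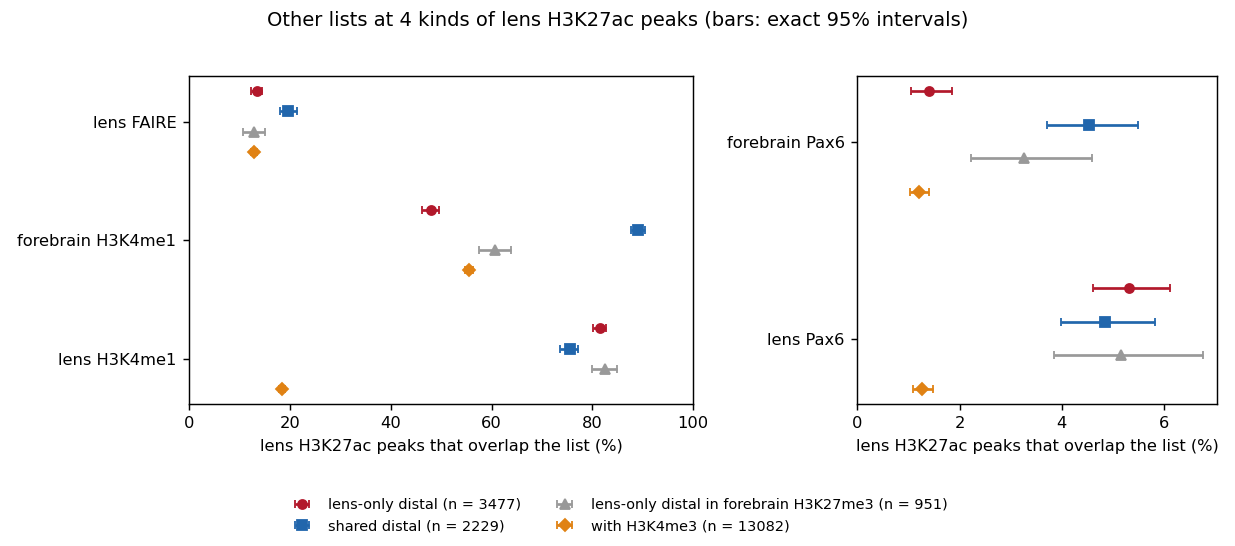
Share of lens H3K27ac peaks that overlap each list (x axis, percent), for lens-only distal, shared distal, lens-only distal within forebrain H3K27me3 and H3K4me3-bearing peaks, with exact 95% intervals as bars. Lens-only distal peaks have lens H3K4me1 at 81.4% and forebrain H3K4me1 at 47.9%, against 75.5% and 89.1% at shared distal peaks.

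A further 951 lens peaks met the rule except that they lay in forebrain H3K27me3, the mark of Polycomb repression. They had lens H3K4me1 at 82.5%, FAIRE at 12.8% and lens Pax6 at 5.15%. The lens-only minus Polycomb differences were -1.12 points (-3.76 to 1.71) for lens H3K4me1, 0.545 points (-1.98 to 2.84) for FAIRE and 0.168 points (-1.57 to 1.64) for Pax6, all with intervals that included 0. Lens H3K27me3 differed, at 1.32% of the members and 24.0% of these peaks (-22.7 points, -25.5 to -20.0). These peaks were separated from the members by forebrain H3K27me3, so this difference is a description and not independent of the rule. In forebrain they had H3K4me1 more often than the members, at 60.7% against 47.9% (difference -12.8 points, -16.3 to -9.23). Forebrain-only distal peaks, chosen by the same rule with the tissues exchanged, numbered 9767. Of these, 89.1% had H3K4me1 in their own tissue and 35.2% had it in the other, against 81.4% and 47.9% at the lens-only members. These shares are not on equal terms, since the forebrain H3K4me1 list covers more of the genome.

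The H3K4me1 islands at the members were wider and denser than the average of their list. The 1831 lens islands that held a member (8.80% of the list) had a median width of 4400 bp, 77 ChIP reads and 67 control reads, and the authors' ratio of ChIP over control was 3.43. The median over all lens islands was 3000 bp, 47 reads and a ratio of 3.13, and over islands without any lens H3K27ac 2800 bp, 45 reads and 3.08. Lens islands at shared distal peaks were wider and denser still, at 4600 bp, 85 reads and 3.62, so this was not particular to the members. A single member lay in 1213 of the 1831 islands, 618 held 2 or more, 86 held 4 or more, and the fullest held 20. The 1197 forebrain islands at members had a median ratio of 3.12, between the 2.68 of forebrain islands without forebrain H3K27ac and the 3.49 of those at shared distal peaks. Wider islands have more room for a peak, and the part this plays was not tested.

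**Figure D2:**
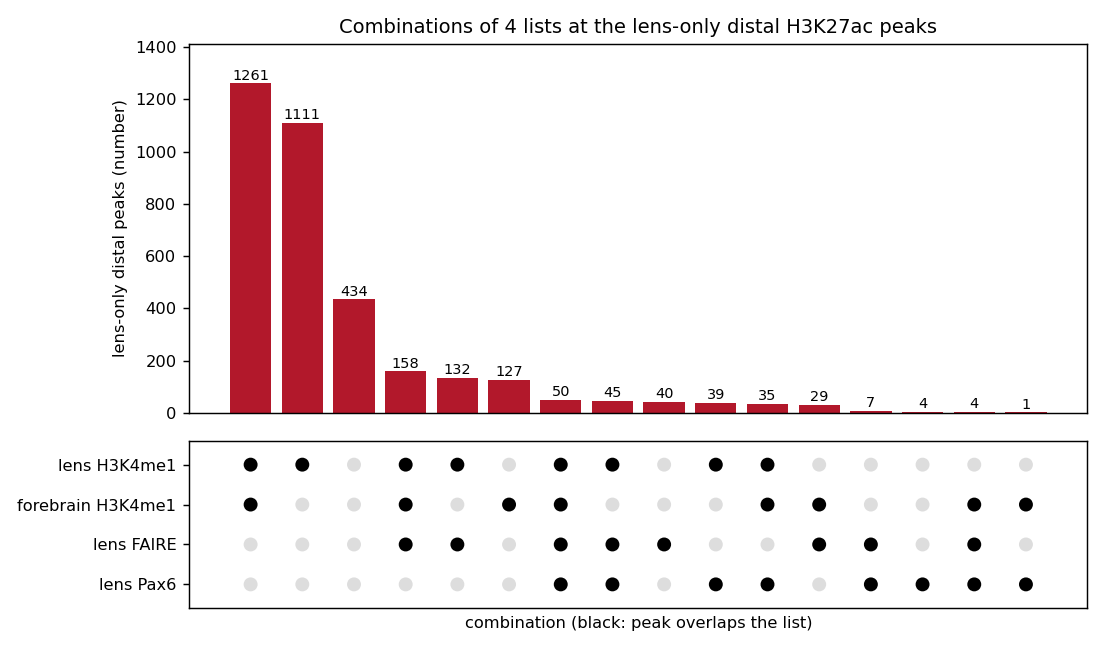
Number of lens-only distal peaks (y axis) with each of the 16 combinations of lens H3K4me1, forebrain H3K4me1, lens FAIRE and lens Pax6, where a black dot marks overlap with the list. The 2 largest classes, 1261 and 1111 peaks, carry lens H3K4me1 with and without forebrain H3K4me1 and neither FAIRE nor Pax6.

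Most members carried H3K4me1 and no listed open chromatin or Pax6. The combinations with lens H3K4me1 alone of the lens lists came to 1261 peaks with and 1111 without forebrain H3K4me1. FAIRE, H3K4me1 and Pax6 of lens coincided at 95 members, of which 41 overlapped no forebrain list. The strongest of these were the peaks on chromosome 10 described above. They were followed by one on chromosome 5 at 115325608 to 115326487 (fold enrichment 11.0, Pax6 fold enrichment 10.6) and one on chromosome 3 at 27171683 to 27172796 (10.2 and 5.59). The fifth, on chromosome 18, stood at 9.34 and 10.8. These combinations were counted at members alone, without a share over all lens H3K27ac peaks, so none is shown to be particular to the members. None of the 8 lists described here overlapped 421 members (12.1%, 11.0% to 13.2%), against 20.2% of all lens H3K27ac peaks. That background is mostly peaks with H3K4me3, where the share was 26.2%. It was lower than at the members among shared distal peaks, at 6.33% (5.35% to 7.42%). At lens-only distal peaks in forebrain H3K27me3 it was 5.99% (4.57% to 7.70%). The strongest members without any list were on chromosome 8 at 123803889 to 123804356 (9.89), on chromosome 7 at 16465604 to 16466773 (9.34), which lay 0.388 kb from an H3K4me3 peak, and on chromosome 4 at 149590068 to 149590390 (8.52).

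Open chromatin by FAIRE overlapped 465 members, 13.4% (12.3% to 14.6%), close to the 13.6% of all lens H3K27ac peaks. At shared distal peaks the share was 19.7%, which gave a lens-only minus shared difference of -6.32 points (-8.34 to -4.34). Members were also weaker peaks, and within 4 strata of H3K27ac fold enrichment the lens-only minus shared difference was -4.07, -4.37, -5.00 and -2.34 points from the weakest to the strongest stratum, the last with an interval from -6.56 to 1.94. With gaps of up to 1 kb allowed the shares were 43.4% at members and 41.6% at shared peaks, a difference of 1.77 points (-0.865 to 4.39), beside 38.0% of all lens H3K27ac peaks. The lower FAIRE share of the members was thus seen for direct overlap and not within 1 kb.

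Lens Pax6 peaks overlapped 185 members, 5.32% (4.60% to 6.12%), against 2.56% of all lens H3K27ac peaks. The share differed from that of shared distal peaks (4.85%) by 0.475 points, with an interval from -0.721 to 1.62. Forebrain Pax6 overlapped 49 members, 1.41% (1.04% to 1.86%), against 1.78% of all and 4.53% of shared distal peaks. Pax6 of both tissues overlapped 26 members, of lens alone 159 and of forebrain alone 23. For the 2229 shared distal peaks the corresponding counts were 52, 56 and 49, and for all 20053 lens H3K27ac peaks 185, 329 and 172. The 172 lens Pax6 peaks at members made up 4.51% of the Pax6 list and had a median fold enrichment of 9.34, against 6.90 over all 3815 lens Pax6 peaks. Of these 172, 18.6% (13.1% to 25.2%) also overlapped a forebrain Pax6 peak, against 32.6% (31.1% to 34.1%) of all lens Pax6 peaks. The rule left out peaks with listed forebrain H3K27ac, H3K4me3 or H3K27me3. The forebrain Pax6 comparisons here and at 1 kb below are therefore a description and not independent of the rule. Most lens Pax6 peaks (3349, 87.8%) overlapped no lens H3K27ac peak at all.

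Allowing 1 kb between the intervals raised the lens Pax6 share of the members from 5.32% to 17.5% (16.3% to 18.8%), against 6.73% of all lens H3K27ac peaks within that distance. At shared distal peaks it reached 10.3%, a difference of 7.24 points (5.43 to 9.01). Forebrain Pax6 lay within 1 kb of 6.50% of members, against 5.04% of all and 11.9% of shared distal peaks. By direct overlap the interval of the lens Pax6 difference included 0 over all peaks with their own widths. It did not for windows of 250 bp on each side of the summit (1.56 points, 0.441 to 2.64) or for lens H3K27ac peaks at or above the list's median -log10 q (4.75 points, 1.65 to 7.99). The interval did include 0 when the rule allowed gaps of up to 1 kb (0.412 points, -0.953 to 1.74). The same held for overlap of 0.5 of the shorter interval (0.0473 points) and for Pax6 peaks at or above their list's median fold enrichment (0.508 points). At 1 kb or more from H3K4me3, lens Pax6 overlapped 5.68% of lens-only and 5.90% of shared peaks.

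Members with Pax6 were often open. FAIRE overlapped 106 of the 185 members with lens Pax6, 57.3% (49.8% to 64.5%), and 359 of the 3292 without, 10.9%. Lens H3K4me1 was listed at 91.4% of the members with and 80.9% (79.5% to 82.2%) of those without Pax6, and the interval of the first began at 86.3%. Forebrain H3K4me1 was listed at 48.6% and 47.8%, with intervals that overlapped. Members with Pax6 were wider (median 598 bp against 356 bp) and stronger (fold enrichment 5.49 against 4.67), and the part this plays in the overlaps was not tested. At shared distal peaks the FAIRE shares were 57.4% with and 17.8% without lens Pax6.

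The lens Pax6 peaks of highest fold enrichment that overlapped members lay off the acetylation summits, and 2 such peaks lay between neighbouring members. The 2 members with the highest overlapping Pax6 fold enrichment (54.2) were neighbours on chromosome 6, at 38709797 to 38710222 and at 38710661 to 38710905. Their H3K27ac summits stood 269 and 309 bp from the same Pax6 summit, and the acetylation itself was modest there, with fold enrichments of 3.93 and 5.77. Both lay in H3K4me1 islands of lens (150 ChIP reads) and forebrain (216 reads), and the first also overlapped a forebrain Pax6 peak. On chromosome 8 the members at 6131804 to 6132099 and 6132718 to 6133313 likewise flanked one Pax6 peak (fold enrichment 44.7), with summits 511 and 573 bp from it. These also overlapped FAIRE and H3K4me1 of both tissues. The fifth, on chromosome 10 at 68847764 to 68848972, had a Pax6 fold enrichment of 39.8, a distance of 813 bp between the summits, and lens H3K4me1 without FAIRE or forebrain H3K4me1.

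Over all members, summits of H3K27ac and Pax6 rarely coincided. Among the 687 members with a lens Pax6 summit within 2000 bp of their H3K27ac summit, the median distance was 583 bp and 8 (1.16%) lay within 100 bp. For FAIRE centres 1677 members had one within 2000 bp, the median distance was 612 bp and 58 (3.46%) lay within 100 bp. At shared distal peaks the lens Pax6 values were 566 bp and 1.61%, so the offset from Pax6 was not particular to the members. FAIRE centres lay nearer there, at 479 bp and 7.52%. Neighbouring members at most 1 kb apart, with no other lens H3K27ac peak between, formed 854 gaps with a median length of 370 bp. This comparison was chosen after the distances had been seen. A lens Pax6 summit lay in 120 of the gaps, 14.1% (11.8% to 16.6%). Windows of the same length on the outer sides of the pairs, free of lens H3K27ac, held one in 38 of 1415 cases, 2.69% (1.91% to 3.67%), and the peaks of the pairs in 16 of 1458, 1.10% (0.629% to 1.78%). Per kb this was 0.341 Pax6 summits in gaps, 0.0686 in outer windows and 0.0207 in the peaks. FAIRE centres lay in 197 gaps, 23.1% (20.3% to 26.0%), in 4.45% of outer windows and in 5.28% of the peaks.

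**Figure D3:**
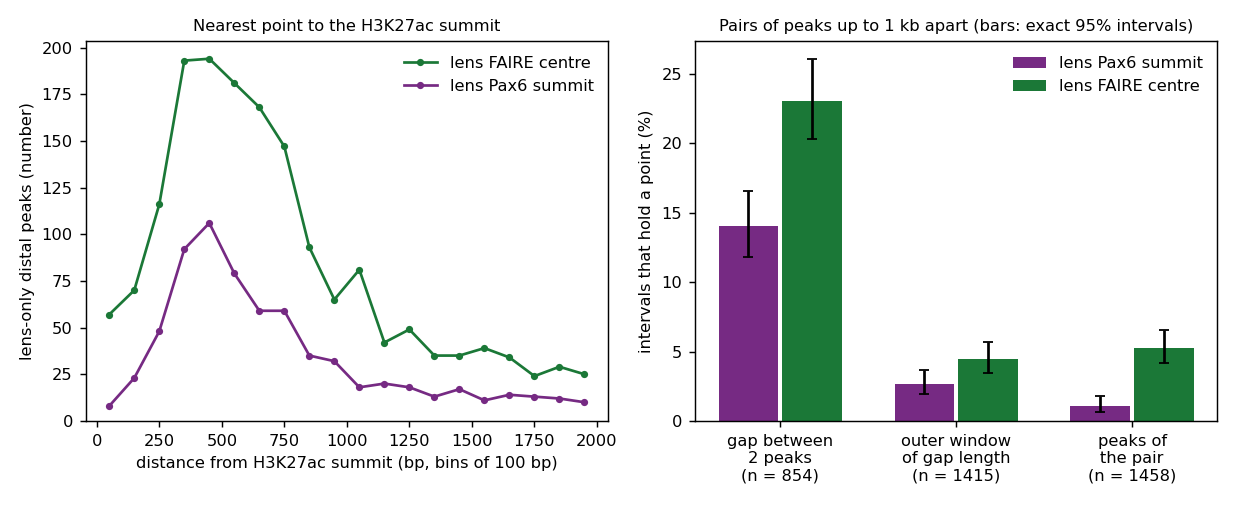
Left, number of lens-only distal peaks (y axis) by the distance from their H3K27ac summit to the nearest lens Pax6 summit or FAIRE centre (x axis, bp). Right, percent of intervals holding such a point, for gaps between 2 peaks, equal windows outside the pair and the peaks, with exact 95% intervals; Pax6 lies in 14.1% of gaps and 2.69% of outer windows.

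Pax6 and open chromatin met in the same gaps. A FAIRE centre lay in 88 of the 120 gaps with a lens Pax6 summit, 73.3% (64.5% to 81.0%), and in 109 of the 734 without one, 14.9% (12.4% to 17.6%). Longer gaps held more of both, with Pax6 in 4.45% of gaps up to 250 bp, 15.7% of those of 251 to 500 bp and 20.8% of those of 501 to 1000 bp. FAIRE went from 3.64% to 24.3% and 39.4% over the same lengths. Forebrain Pax6 summits lay in 3.28% (2.19% to 4.70%) of the gaps between members. In the 478 gaps between shared distal peaks it was 9.21% (6.77% to 12.2%) for forebrain Pax6 and 7.95% (5.69% to 10.7%) for lens Pax6. The gaps between lens-only peaks thus held lens Pax6 more often and forebrain Pax6 less often than the gaps between shared peaks, with exact 95% intervals that did not overlap. The lens Pax6 difference was not confined to the gaps. Outer windows held it in 2.69% (1.91% to 3.67%) of cases at lens-only and 0.888% (0.358% to 1.82%) at shared pairs. Members were chosen for missing forebrain H3K27ac, so the forebrain Pax6 difference is a description and not independent of the rule. The gaps between lens-only peaks were also longer than those between shared peaks (median 370 bp against 294 bp), and the part this plays was not tested.

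The strongest members differed from the rest in the lens lists. When the members were split at the quartiles of fold enrichment, lens H3K4me1 was listed at 78.7%, 78.2%, 81.5% and 88.2% from the weakest to the strongest group. FAIRE went from 9.98% and 7.68% to 13.5% and 23.8%, and lens Pax6 from 3.36% and 3.07% to 3.93% and 11.8%. Forebrain H3K4me1 showed no such order, at 49.6%, 44.1%, 48.1% and 50.1%. The groups also differed in width, from a median of 309 bp to 587 bp. In windows of 500 bp about every summit, which give each member the same length, FAIRE stood at 13.6% in the weakest and 20.5% in the strongest group, with exact 95% intervals of 11.4% to 16.0% and 17.7% to 23.5%. Lens Pax6 stood at 4.04% (2.84% to 5.54%) and 8.18% (6.36% to 10.3%). The strongest group thus stayed above the weakest at equal width, by less than with the peaks' own widths.

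**Figure D4:**
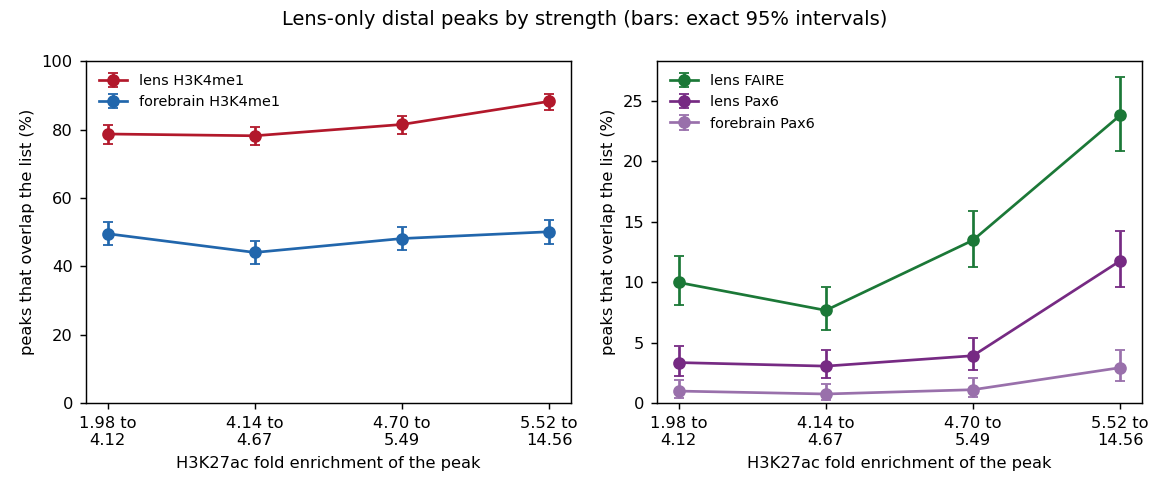
Percent of lens-only distal peaks that overlap each list (y axis) in 4 groups of H3K27ac fold enrichment (x axis), with exact 95% intervals. FAIRE reaches 23.8% and lens Pax6 11.8% in the strongest group, while forebrain H3K4me1 stays between 44.1% and 50.1%.

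At the top of the scale, in the stratum of highest fold enrichment over both kinds of distal peaks, lens Pax6 overlapped 11.9% of lens-only and 7.48% of shared peaks, a difference of 4.42 points (1.53 to 7.41). In the other 3 strata the differences were 0.867, -0.481 and 0.953 points, each with an interval that included 0. Lens H3K4me1 in that stratum was 88.5% at lens-only and 77.0% at shared peaks. The strata were not split by distance from H3K4me3. At 1 kb or more from it, with all strata together, lens H3K4me1 was listed at 83.7% of lens-only and 87.8% of shared peaks. Lens Pax6 overlapped 5.68% and 5.90% there.

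RNA polymerase II and the Polycomb mark of lens were rare at the members. Polymerase of lens overlapped 12 members, 0.345% (0.178% to 0.602%), against 15.7% of all lens H3K27ac peaks, and polymerase of forebrain overlapped 4, against 7.71% of all. That background is largely set by the rule, since 3058 of the 3155 lens H3K27ac peaks with lens polymerase carried the H3K4me3 that the rule removed. Of the 12, 7 lay under 1 kb from an H3K4me3 peak. The strongest 3 were on chromosome 1 at 136311178 to 136311771 (fold enrichment 5.49), on chromosome 7 at 26504362 to 26504688 (5.49) and on chromosome 5 at 113509468 to 113509724 (5.22), which lay 0.197, 0.132 and 57.2 kb from H3K4me3. Shared distal peaks had lens polymerase in 3.63% of cases, a lens-only minus shared difference of -3.29 points. Of those 81 shared peaks, 50 lay under 1 kb from an H3K4me3 peak. At 1 kb or more the shares were 1.83% at shared and 0.155% at lens-only peaks. H3K27me3 of lens overlapped 46 members, 1.32%, against 5.77% of all lens H3K27ac peaks, 3.23% of shared distal peaks and 24.0% of the peaks in forebrain H3K27me3. The rule removed peaks in forebrain H3K27me3, so the first and last of these comparisons are not independent of it.

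The members were also described by their distance from forebrain acetylation. This distance comes from a list that the rule used, and forebrain acetylation itself lay largely in forebrain H3K4me1 (89.1% of forebrain-only distal peaks), so the forebrain H3K4me1 values by distance are a description. The median gap to the nearest forebrain H3K27ac peak was 16.9 kb. At the edge of the rule, 72 members lay under 100 bp from a forebrain H3K27ac peak and 77 peaks were left out for an overlap under 100 bp. Just inside were the members on chromosome 4 at 134172957 to 134173184 (fold enrichment 3.57, gap 2 bp) and on chromosome 3 at 89417400 to 89417627 (4.12, gap 3 bp). Just outside were peaks on chromosome 13 at 51442016 to 51442693 (5.22, overlap 1 bp) and on chromosome 5 at 20681533 to 20681859 (4.40, overlap 3 bp). The 617 members under 1 kb from forebrain acetylation had forebrain H3K4me1 in 83.8% of cases (80.6% to 86.6%), near the 89.1% of shared distal peaks. The share was 56.7% at 1 to 10 kb, 35.7% at 10 to 50 kb and 31.0% (28.0% to 34.2%) at 50 kb or more. Lens H3K4me1 stayed between 80.1% and 84.9%.

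Among the members, lens Pax6 ran the other way. It overlapped 2.59% (1.49% to 4.18%) of the members under 1 kb from forebrain acetylation, 4.37% at 1 to 10 kb, 5.47% at 10 to 50 kb and 7.93% (6.22% to 9.93%) at 50 kb or more. Shared distal peaks, which overlap forebrain acetylation, had it at 4.85%, above both nearer groups, so the order did not extend to them. Lens Pax6 also overlapped 0.791% of members under 1 kb from H3K4me3 and 5.68% of those farther away, and the part this plays was not tested. Forebrain Pax6 stood at 2.11% (1.13% to 3.58%), 1.25%, 1.51% and 0.920% (0.398% to 1.80%), with first and last intervals that overlapped. FAIRE had no single direction, at 14.1%, 7.12%, 13.1% and 19.0%. The median H3K27ac fold enrichment was 4.67 in all 4 groups. Many members shared a value, so equal medians do not show that the groups were equal in strength. A wider rule that also left out peaks within 1 kb of any excluded list kept 2692, of which 38.7% had forebrain H3K4me1 and 5.98% lens Pax6.

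**Figure D5:**
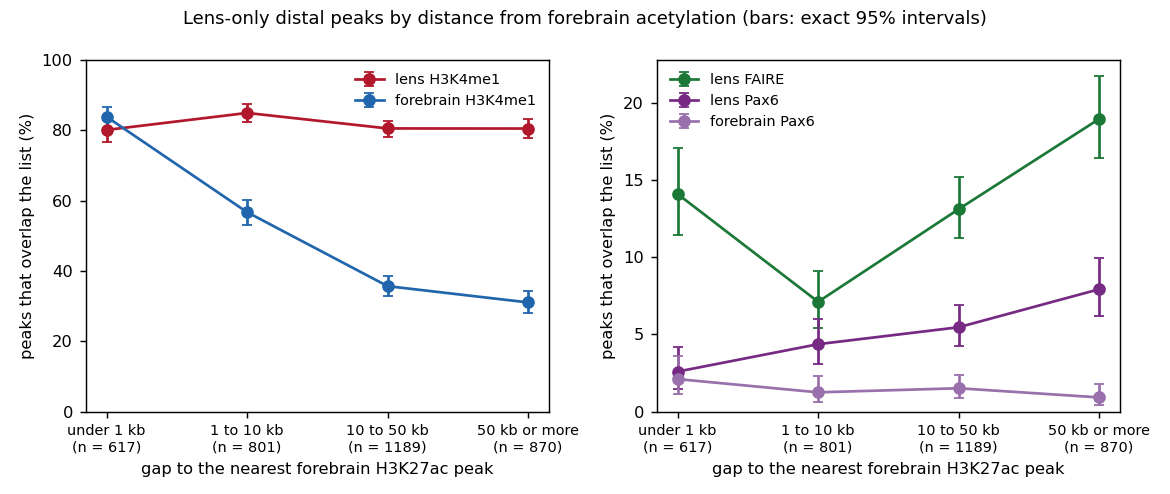
Percent of lens-only distal peaks that overlap each list (y axis) by the gap to the nearest forebrain H3K27ac peak (x axis), with exact 95% intervals. Forebrain H3K4me1 goes from 83.8% to 31.0% with distance, and lens Pax6 from 2.59% to 7.93%.

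Joining members at the stitching distance customary for super-enhancers gave 2105 groups, of which 1387 were single peaks and 297 held 3 or more, with 1248 members among them. Other lens H3K27ac peaks were not joined in this way, so no grouping particular to the members is shown. The largest, on chromosome 12 at 109472527 to 109508354, spanned 35.8 kb and held 20 members with fold enrichments from 3.20 to 9.89. All 20 lay in lens H3K4me1 and 10 in forebrain H3K4me1, none overlapped FAIRE and 1 overlapped lens Pax6, and 4 forebrain H3K27ac peaks lay within the span. A single lens H3K4me1 island of 854 ChIP reads (109472001 to 109508400) covered it. A group on chromosome 7 at 30215132 to 30240632 held 14 members, all in lens H3K4me1 and 7 in forebrain H3K4me1, with FAIRE at 6 and lens Pax6 at 4 of them and no forebrain H3K27ac in its 25.5 kb. It included the third widest member, of 3121 bp. The third group, on chromosome 11 at 88338442 to 88375231, held 14 members, of which 13 were in forebrain H3K4me1 and none overlapped Pax6. No lens H3K4me3 peak lay in any of these 3 spans.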

How the data were processed

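ChIP-seq for Pax6, RNA polymerase II and 4 histone marks, FAIRE-seq of lens and RNA-seq were collected in 24 samples. Per the submitters' processing notes, peaks and islands were called with MACS2 and SICER on mm9. No label or header names the aligner, the MACS2 threshold or how the forebrain Pax6 libraries were combined. The deposited peak lists hold the authors' fold enrichment at the summit (a ratio to control), -log10 p and q, and a whole-number score made from q. The deposited island lists hold read counts of ChIP and control, their ratio, and a p-value with its FDR. Per their names, windows were 200 bp, gaps 600 bp and the FDR 0.001. The deposited FAIRE list holds intervals alone. RNA levels are the authors' deposited RPKM, with TopHat2 and Cufflinks named in the notes. Library depth is unknown for the peak lists.

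Overlap meant at least 1 shared bp, computed in Python 3.11.15 (pandas 2.3.3) and checked against bedtools 2.31.1 on 12 lists and on 6 planted cases. Shares have exact Clopper-Pearson 95% intervals (scipy 1.17.1) and differences Newcombe intervals (statsmodels 0.14.6). These treat peaks as independent, which neighbouring peaks in 1 island are not. The background of each share is all lens H3K27ac peaks, members included. The rule and the lists were chosen with earlier results of these data known. Regions were named by rank: highest H3K27ac or Pax6 fold enrichment, greatest width, lens lists alone, no list, polymerase, distance to the edge of the rule, and largest groups. Alternatives changed the overlap, the peak strength, the window and the lists. Gene neighbours and sequences were not analysed here.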

Additional observations from a re-analysis of the deposited data

How the results depend on the processing

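Of 95 alternative values, 53 stayed near the reported one, 39 moved beyond its counting interval or by over 1.5 times for a count, and 3 changed direction. Of the 53, 13 came from leaving out islands with control reads per kb over 10 times their list's median. These islands held 0 members and 0 shared distal peaks, so the 13 values could not change. With H3K4me1 lists of equal length the lens values could not change either, since the lens list was the shorter. The cause of the changes was not tested except where the alternative itself removes peaks or widens the overlap. Lens H3K27ac peaks at or above the list's median -log10 q held 643 members, with shares of 90.0% for lens H3K4me1, 50.7% for forebrain H3K4me1, 25.5% for FAIRE, 12.8% for lens Pax6, 3.11% for forebrain Pax6 and 0% for polymerase of lens and of forebrain. The lens-only minus shared differences were then 12.4 points for lens H3K4me1, -38.9 for forebrain H3K4me1, -2.57 for FAIRE and 4.75 for lens Pax6. Gaps of up to 1 kb gave 83.4% for lens H3K4me1, 52.3% for forebrain H3K4me1, 43.4% for FAIRE, 17.5% for lens Pax6, 6.50% for forebrain Pax6, 1.73% and 0.633% for polymerase of lens and forebrain and 2.21% for lens H3K27me3. The FAIRE difference turned to 1.77 points and the lens Pax6 difference rose to 7.24. Requiring 0.5 of the shorter of both intervals gave 46.2% for forebrain H3K4me1, 6.33% for FAIRE, 1.44% for lens Pax6, 0.259% for forebrain Pax6 and 0.173% for lens polymerase, and a FAIRE difference of -4.26. The rule with gaps of up to 1 kb gave 38.7% for forebrain H3K4me1 and differences of -6.86 for lens H3K4me1 (reversed), -55.9 for forebrain H3K4me1 and -4.03 for FAIRE. Each described list above its own median strength gave 53.8% for lens H3K4me1, 30.9% for forebrain H3K4me1, 4.14% for lens Pax6, 0.863% for forebrain Pax6 and 0.489% for lens H3K27me3, and a lens H3K4me1 difference of -3.72 (reversed); the FAIRE list gives no strength, so it has no value under this setting. H3K4me1 lists of equal length gave 31.2% for forebrain. The 250 bp window on each side of the summit gave 15.6% for FAIRE and 1.93% for forebrain Pax6. Averaged within strata of fold enrichment, chosen after seeing the data, the FAIRE difference was -3.87. No paired analysis was possible because each mark had 1 list per tissue, and leaving out a replicate could not be done for the same reason. A peak missing from a list may lie under its threshold, and the depth of the peak-list libraries is unknown.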

Other observations

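Chromosome X stood apart in the share of its lens H3K27ac peaks that were lens-only distal. It held 13 among 318 peaks, 4.09% (2.19% to 6.89%), against 17.6% (17.0% to 18.1%) of the 19734 autosomal peaks. The autosomes ranged from 13.3% on chromosome 13 to 21.4% on chromosome 12. Shared distal peaks made up 8.81% of the peaks on X and 11.2% of those on autosomes. Distal peaks acetylated in both tissues and lying in forebrain H3K27me3 made up 8.49% (5.67% to 12.1%) on X and 1.45% (1.29% to 1.63%) on autosomes. Peaks with H3K4me3 made up 74.2% on X and 65.1% on autosomes. The sexes of the animals are not given in the labels, and their part in these values was not tested.

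FAIRE was listed at the members about as often with as without lens H3K4me1. It overlapped 13.6% (12.4% to 14.9%) of the 2831 members in a lens H3K4me1 island and 12.4% (9.94% to 15.2%) of the 646 outside. Lens Pax6 overlapped 5.97% (5.13% to 6.91%) and 2.48% (1.42% to 3.99%) of the same members. Forebrain Pax6 overlapped 2.52% (1.82% to 3.39%) of the members in a forebrain H3K4me1 island and 0.386% (0.155% to 0.794%) of those outside, while lens Pax6 overlapped 5.41% and 5.24%. Among members without forebrain H3K27ac, forebrain Pax6 was thus listed more often where forebrain H3K4me1 was listed, beyond counting error within these lists.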
